A study of Homo sapiens with 4 samples.

Results

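Transcript levels of 8 transcription factors that set the identity of gut and lung epithelium (CDX1, CDX2, HNF4A, FOXA1, FOXA2, GATA6, NKX2-1 and SOX9) were compared in a colorectal and a lung cancer cell line, each transfected either with miR-891b, a microRNA, or with NC1, a control small RNA. The members were all gene probes on the array that carried the name of a factor, which gave 11 probes for 8 genes, out of 58201 probes for 43317 gene names. HCT116 is an established line from a human colorectal carcinoma and A549 an established line from a human lung adenocarcinoma. The 4 groups were HCT116 with NC1, HCT116 with miR-891b, A549 with NC1 and A549 with miR-891b. All were transfected with the lipid reagent Dharmafect1, so the NC1 cells also carried a transfected small RNA, and no group was left untransfected. For each group 100 ng of total RNA was labelled with Cy3 and hybridised to 1 Agilent 1-colour array. The series as a whole concerns the serine synthesis enzyme PSAT1 and the shedding of vesicles from cancer cells. Where 2 values are given for a line, the array with NC1 comes first and that with miR-891b second. The labels name no dose of the microRNA and no time after transfection.

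The intestine, liver, pancreas and lung all arise from the endoderm, and a small set of transcription factors marks out its regions. FOXA1 and FOXA2 are forkhead proteins that open closed chromatin, and GATA6 is a zinc finger factor that acts with them across the endoderm. CDX1 and CDX2 are homeodomain factors of the intestine, and CDX2 is used in pathology as a marker of colorectal tumours. HNF4A is a nuclear receptor that drives genes of hepatocytes and enterocytes. NKX2-1, also called TTF-1, is the homeodomain factor of lung and thyroid, where it turns on surfactant genes, and SOX9 is an HMG-box factor of intestinal crypts, lung tips and other progenitor compartments.

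The transfected microRNA is shown first because its seed (bases 2 to 8, in capitals) decides which transcripts it can pair with. The sequence is that of RefSeq, where the gene lies on chromosome X (GRCh38.p14, minus strand).
miR-891b: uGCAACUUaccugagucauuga

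Each level below is the signal of a probe of 60 bases, and the probe decides which part of a transcript is read. The first 30 bases of the probes on which the results turn are printed from the 5′ end as the files give them, with hg19 coordinates. The CDX1 probes lie within a stretch of chr5:149563184-149563877 (plus strand) and gave different readings, so all are shown.
CDX1 A_33_P3289848: aacaccagcctcctggccacctcctctcca
CDX1 A_23_P58788: ttccagctcctgtgttctagacctctgggg
CDX1 A_22_P00014880: aatcacagccctcatgatcattctcagtga
The following 4 probes are those of the factors with the widest separation between the lines: CDX2 at chr13:28536302-28536361, FOXA1 at chr14:38059546-38059605, FOXA2 at chr20:22562164-22562223 and NKX2-1 at chr14:36985718-36985777, all on the minus strand.
CDX2 A_33_P3304501: gtgatatggtgaagggaagtggggagtatt
FOXA1 A_23_P37127: attacaatgttggaggagagataagttata
FOXA2 A_24_P365515: tccggtttccactactgtgtagactcctgc
NKX2-1 A_24_P61490: cagcccttcacattttttatgggcattgac
The complement of the miR-891b seed, AAGTTGC, was found in 0 of the 11 probes over their whole length and in 229 of all 58201 probes (0.393%). The probes cover a small part of each transcript, so this count describes the probes only.

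The processed signal at the 75th percentile, to which every array was scaled, was 54.9 and 57.0 in HCT116 and 74.8 and 74.2 in A549. Between 44.7% and 50.3% of probes were well above background, a mark that the scanner software sets for each spot. Patches of stray signal covered 10.5% of the gene spots of HCT116 miR-891b and 2.20% or less of those of the other arrays. Both arrays of a line shared a slide and a scan, and the other line was on another slide, so the line and the slide cannot be told apart. With 1 array in a group, no difference within a line has a replicate check, and nothing in the labels speaks of separate cultures. A difference was therefore called by size, at 2-fold or more, among genes well above background on both arrays compared. Log2 levels are given relative to the 75th percentile, and a spot error beside a difference is the scatter of repeated spots of similar brightness within the arrays, which is smaller than the spread between cultures would be.

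The markers of each line were read before its factors. Of 7 colorectal markers, CDX2, EPCAM, CLDN7 and CLDN3 were at least 2-fold lower in A549 on both kinds of array. CDX1 was within 2-fold, and the intestinal genes CDH17 and VIL1 were well above background in A549 only. Of 9 markers taken for A549, AKR1B10, ALDH3A1 and KRT81 were at least 2-fold higher in A549 in both transfections and ALDH1A1 was well above background in A549 only (at least 8348-fold higher on the NC1 arrays). AKR1C1 was higher in A549 by 11.92 on the NC1 arrays and at least 3555-fold on the miR-891b arrays. The lung markers NAPSA and SFTPC did not mark A549: NAPSA was lower there (-1.11 and -1.91) and SFTPC differed by -0.19 and 0.39. The surfactant gene SFTPB was at background level on each of the 4 arrays. AKR1B10 was also higher with miR-891b in HCT116, at signals of 11.2 and 259 (log2 difference 4.47), so its difference between the lines was 12.17 on the NC1 arrays and 7.51 on the miR-891b arrays. NKX2-1, the defining lung factor, was well above background in HCT116 only. The growth protocol also names fibroblast lines, so fibroblast markers were read too. Of 11, 3 and 3 were well above background in HCT116 and 5 and 6 in A549, with summed signals of 222 and 208 in HCT116 and 471 and 869 in A549. COL1A1, PDGFRB and ACTA2 were well above background on all 4 arrays, LUM and THY1 in A549 only, and PDGFRA on A549 miR-891b only. LUM, a matrix proteoglycan gene, had signals of 153 and 668 in A549, a log2 difference of 2.14 with miR-891b that was larger in signal than the difference of the sums, and THY1 had 27.0 and 13.0. COL1A2, COL3A1, DCN, FAP and POSTN did not clear the background on any of the arrays, and a part of other cells in the results was not tested.

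**Figure D1:**
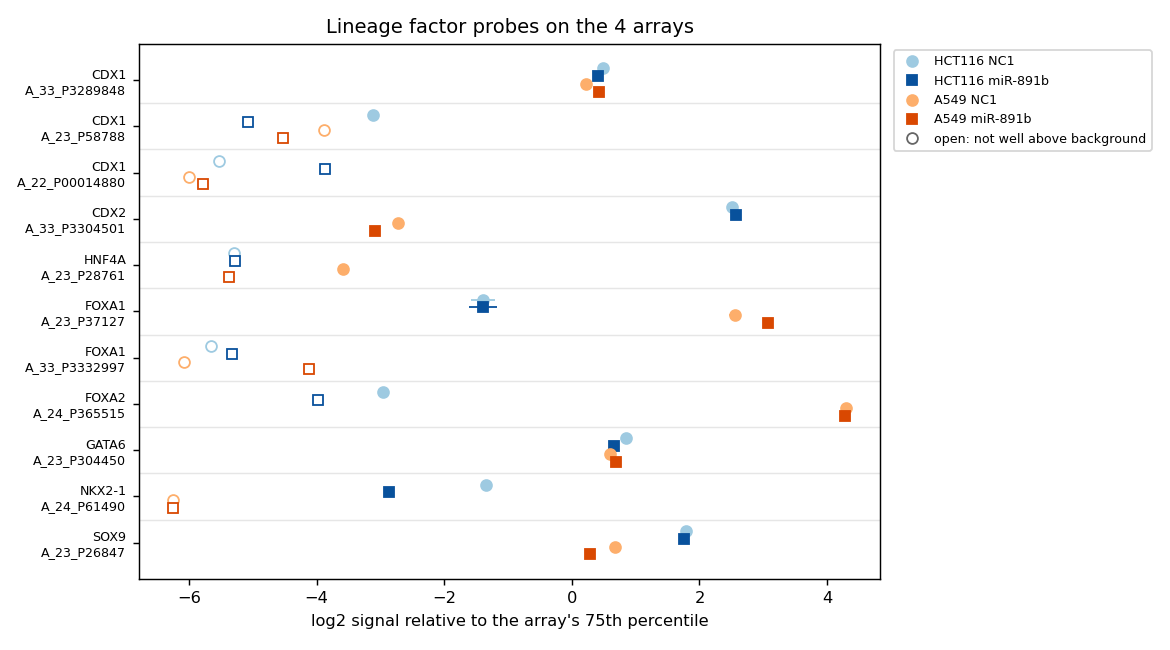
Log2 signal of the 11 probes of the 8 factors relative to the 75th percentile of each array (x axis), with 1 point for each of the 4 arrays; filled points are well above background and open points are not, and bars on FOXA1 A_23_P37127 give the SD over its spots. CDX2 and NKX2-1 lie to the right in HCT116, FOXA1 and FOXA2 lie to the right in A549, and the 4 arrays lie close together for GATA6 and for the first CDX1 probe.

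CDX2, the main intestinal homeodomain factor, separated the lines with HCT116 on the high side. Its processed signal was 311 and 339 in HCT116 and 11.3 and 8.76 in A549, and the probe was well above background on all 4 arrays. Both HCT116 arrays were bright and both A549 arrays were close to the background, with no overlap between the lines. The log2 signal in A549 minus HCT116 was -5.23 (spot error 0.255) on the NC1 arrays, which is 37.5-fold lower in A549, and -5.66 (spot error 0.293) on the miR-891b arrays. In bulk RNA, fewer cells with a transcript and less transcript per cell cannot be told apart, here and for all values below. With miR-891b, CDX2 differed by 0.07 in HCT116 (spot error 0.0821) and by -0.36 in A549 (spot error 0.379), the latter within the error of spots this dim. The array design lists this probe for 1 of 6 RefSeq transcripts of the gene. Whether the transcripts not listed also hold its sequence was not tested.

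CDX1, the sister gene of CDX2, did not separate the lines on the probe that was measured throughout. The signal of A_33_P3289848 was 77.3 and 75.4 in HCT116 and 86.9 and 99.1 in A549. The 4 log2 levels lay between 0.22 and 0.49, and A549 NC1, which was lowest, was below HCT116 NC1 by more than the spot error (-0.28, spot error 0.118), whereas the miR-891b arrays differed by 0.01 (spot error 0.104). Further downstream, A_23_P58788 was well above background on HCT116 NC1 only, at a signal of 6.34, against 1.69 with miR-891b and 5.08 and 3.22 in A549. That probe would place CDX1 at least 1.70-fold higher in HCT116 on the NC1 arrays (log2 difference -0.77, spot error 0.467). Its signals lay near the background, and on the miR-891b arrays it was not well above background in either line. The third probe, A_22_P00014880, cleared the background on 0 of 4 arrays, with signals from 1.17 to 3.91. So only the first probe of CDX1 gave a level in A549. Whether the line difference of CDX1 depends on the probe read cannot be told from a single spot near the background.

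HNF4A, the nuclear receptor of hepatocytes and enterocytes, stayed at or near the background in both lines. Its probe lies at chr20:43036102-43042379 on the plus strand, a span of 6278 bases for 60 bases of probe, and the design lists it for 3 of 14 RefSeq transcripts. The signal was 1.40 and 1.47 in HCT116 and 6.21 and 1.79 in A549, and only A549 NC1 was well above background. No fold between the lines is given, since the bound came to less than 1. Within A549 the signal was at least 1.27-fold lower with miR-891b, a bound smaller than the spot error of 0.441 (log2). Whether the HNF4A transcripts that the design does not list also hold the sequence of this probe was not tested. Transcripts without that sequence were not measured.

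FOXA2 gave the widest separation of the 8 factors, in favour of A549. The signal of this forkhead factor was 7.02 and 3.61 in HCT116 and 1476 and 1447 in A549. HCT116 NC1 was just above background and HCT116 miR-891b was not, while both A549 arrays were bright and nearly equal. The difference on the NC1 arrays was 7.27 (spot error 0.194), or 154-fold higher in A549, and on the miR-891b arrays FOXA2 was at least 171-fold higher in A549. With miR-891b FOXA2 was at least 1.12-fold lower in HCT116, a bound smaller than the spot error of 0.543 (log2). In A549 it differed by -0.02 (spot error 0.0692).

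FOXA1, the close relative of FOXA2, was also the higher in A549, and its probe A_23_P37127 was printed on 10 spots of each array. The mean signal in HCT116 was 20.9 with NC1 (spots from 16.3 to 24.4) and 21.7 with miR-891b (9 spots, from 17.7 to 28.4). In A549 it was 440.2 with NC1 (396.8 to 476) and 628 with miR-891b (593 to 663). No spot of an HCT116 array reached the dimmest spot of an A549 array. The difference between the lines was 3.95 (SE over spots 0.0654) on the NC1 arrays, or 15.4-fold, and 4.47 (SE 0.0750) on the miR-891b arrays. The second FOXA1 probe, A_33_P3332997, listed for an Ensembl transcript only, cleared the background on 0 of 4 arrays.

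The repeated spots of FOXA1 give the most precise view of a change with miR-891b among the 8 factors, though they measure the array and not the culture. In A549 the signal was higher with miR-891b at 10 of 10 spot positions, by a mean of 0.52 on the log2 scale (SD over spots 0.0735, from 0.41 to 0.66), or 1.44-fold. In HCT116 it was higher at 4 of 9 positions, with a mean of -0.01 (SD 0.230), after 1 spot of 52.3 with an outlier mark was left out. With that spot kept, it was higher at 5 of 10 positions, with a mean of 0.12 (SD 0.482). That spot and 1 other lay in patches of stray signal on HCT116 miR-891b, where the mean was 0.80 over the 2 spots, against -0.05 over the 8 spots elsewhere. The sign of the FOXA1 change in HCT116 therefore turned on a single spot, and the change in A549 stayed under 2-fold.

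**Figure D2:**
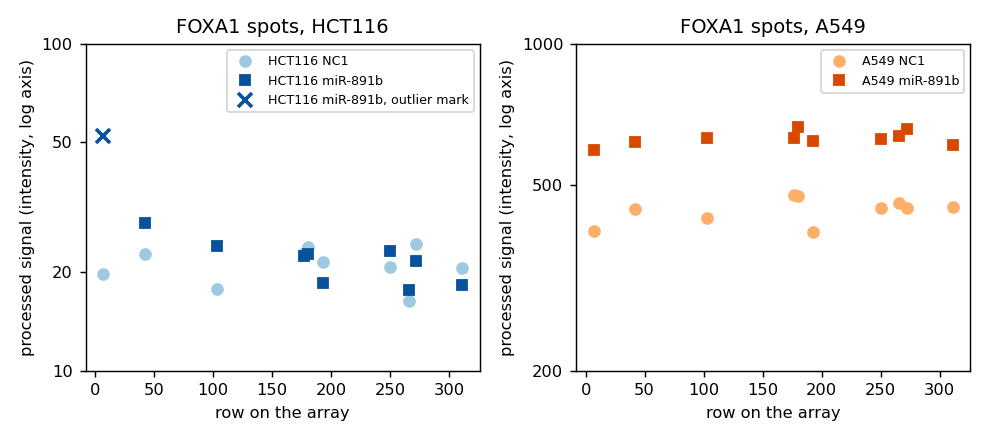
Processed signal (log axis) of the repeated FOXA1 spots against their row on the array, for HCT116 (left) and A549 (right, on another scale), with circles for NC1, squares for miR-891b and a cross for the spot with an outlier mark. In A549 all 10 squares lie above the circles of the same row, and in HCT116 the squares and circles overlap apart from the outlier spot at 52.3.

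GATA6, the zinc finger partner of the FOXA factors in endoderm, was present at a similar level on every array. Its probe at chr18:19781793-19781852 (plus strand) gave 99.1 and 90.3 in HCT116 and 113 and 119 in A549. In log2 units relative to the 75th percentile the levels were 0.85 and 0.66 in HCT116 and 0.59 and 0.68 in A549, so HCT116 NC1 was highest and the other 3 arrays lay within about the spot error. The lines differed by -0.26 (spot error 0.100) on the NC1 arrays and by 0.02 (spot error 0.0977) on the miR-891b arrays. With miR-891b the level differed by -0.19 in HCT116 (spot error 0.105) and by 0.09 in A549 (spot error 0.0927).

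NKX2-1, the lung and thyroid factor, was read in the colorectal line and not in the lung line. The signal was 21.7 and 7.86 in HCT116, both well above background, and 0.977 and 0.980 in A549, which were not. It was at least 6.13-fold higher in HCT116 on the NC1 arrays and at least 2.1-fold on the miR-891b arrays. Between the HCT116 arrays the level was 2.87-fold lower with miR-891b, a log2 difference of -1.52 (spot error 0.242). The lower reading is 1 spot near the lowest signal marked well above background on HCT116 miR-891b, 6.49. NKX2-1 was the only member past 2-fold with miR-891b in either line. With normexp background correction (offset 50) and quantile normalization its difference was -0.40. The offset is added to every signal and narrows the log2 differences of dim probes. The design lists the probe for both RefSeq transcripts of NKX2-1.

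SOX9, the HMG-box factor of progenitor cells, was read in both lines and was higher in HCT116. Its probe at chr17:70121841-70121900 (plus strand) gave 189.8 and 192 in HCT116 and 120.0 and 90.5 in A549. The HCT116 arrays were nearly equal and above both A549 arrays. The difference between the lines was -1.11 (spot error 0.0869) on the NC1 arrays and -1.47 (spot error 0.0962) on the miR-891b arrays. With miR-891b SOX9 differed by -0.04 in HCT116 (spot error 0.0890) and by -0.40 in A549 (spot error 0.0942).

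Counted together, the factors split between the lines. On the NC1 arrays 6 of 8 factors were measured in both lines, of which FOXA1 and FOXA2 were past 2-fold higher in A549 and CDX2 and SOX9 past 2-fold lower, with a median of -0.27 over the 6. Over all genes, 27.3% of 19218 were past 2-fold on these arrays, 2127 higher and 3113 lower in A549, with a median of -0.10. On the miR-891b arrays 5 factors were measured, 1 past 2-fold higher (FOXA1) and 2 lower (CDX2, SOX9), with a median of 0.01, against 32.1% of 18576 genes and a median of -0.20. NKX2-1 was the only factor well above background on both arrays of a line and on neither of the other; 1.5% of all gene names were so in HCT116 and 5.09% in A549.

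The additive fit, with the line and the transfection as terms, used all 4 arrays and gave the only p-values. In limma's fit over 29650 probes with Benjamini-Hochberg adjustment, 5 of the 7 member probes tested differed between the lines, against 33.3% of all probes. These were FOXA2 (coefficient 7.77, SE 0.337, adjusted p = 0.000544), CDX2 (-5.44, SE 0.263, adjusted p = 0.000639), FOXA1 (4.21, SE 0.272, adjusted p = 0.00111), NKX2-1 (-4.15, SE 0.434, adjusted p = 0.00392) and SOX9 (-1.29, SE 0.257, adjusted p = 0.0232). The values of FOXA2 rested on 3 arrays well above background and those of NKX2-1 on 2, so their coefficients hold signals at the background. NKX2-1 passed the filter of the fit only through the HCT116 arrays, where it was high. Its call and p-value are therefore no separate support for its line difference. CDX1 (-0.13, limma adjusted p = 0.712) and GATA6 (-0.12, limma adjusted p = 0.738) did not pass. The fit has 1 residual degree of freedom and takes the response to miR-891b as equal in both lines, and its line term also holds the slide. With normexp background correction and quantile normalization the line differences on the NC1 and miR-891b arrays were -2.54 and -2.70 for CDX2, 2.41 and 3.02 for FOXA1 and -0.74 and -0.96 for SOX9, that of FOXA2 on the NC1 arrays was 4.34, and NKX2-1 no longer passed in limma's fit (-0.46, adjusted p = 0.108).

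**Figure D3:**
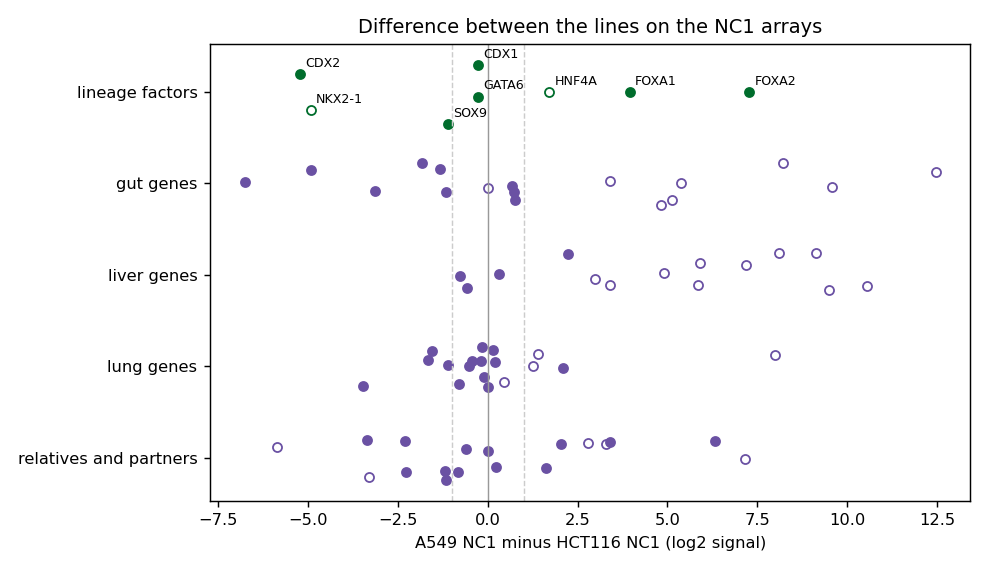
Log2 signal on A549 NC1 minus that on HCT116 NC1 (x axis) for the 8 factors, each by its brightest probe, and for the genes of 4 lists; filled points were well above background on both arrays, open points on 1 array only, and dashed lines mark 2-fold. FOXA1 and FOXA2 lie at 3.95 and 7.27, CDX2 at -5.23, and many open points of the gut and liver lists lie far to the right.

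With miR-891b, the measured factors stayed within 2-fold in either line, apart from NKX2-1 in HCT116. In HCT116, 1 of 6 measured factors was past 2-fold (NKX2-1, lower), with a median of -0.06. Over all genes 2.0% of 19105 were past 2-fold there and the median was -0.04. AKR1B10 also differed between the HCT116 arrays. Stray patches were widest on HCT116 miR-891b, but the NKX2-1 spot lay outside them on both HCT116 arrays. In A549, 0 of 6 measured factors were past 2-fold, with a median of 0.04, where 9.58% of 21336 genes were past 2-fold and the median was -0.06. In A549 the differences from highest to lowest were FOXA1 (0.52), CDX1 (0.20), GATA6 (0.09), FOXA2 (-0.02), CDX2 (-0.36) and SOX9 (-0.40). CDX2, FOXA2 and GATA6 lay within the spot error there, and FOXA1, CDX1 and SOX9 beyond it. In limma's additive fit 0 of 29650 probes (0.00%) passed for miR-891b after adjustment, with 1608 at an unadjusted p under 0.05, and the members' adjusted p ran from 0.795 (NKX2-1, -0.75) to 0.977 (GATA6).

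**Figure D4:**
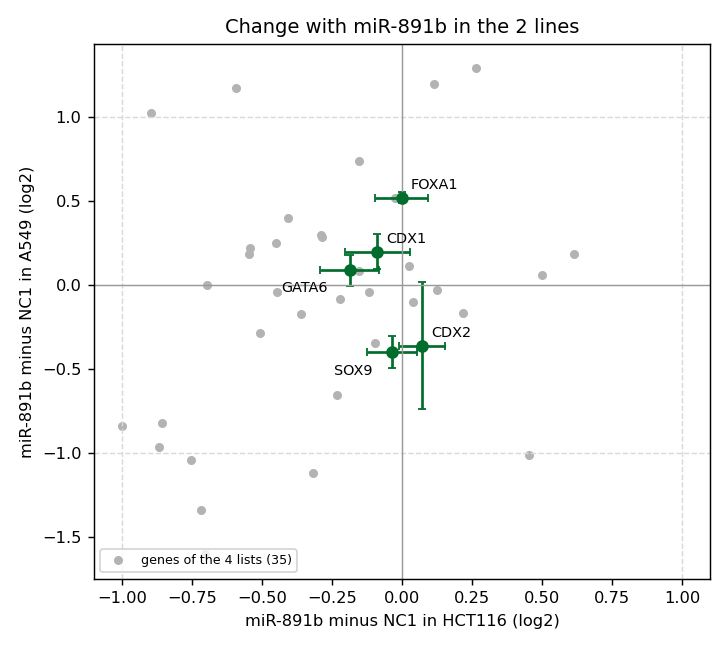
Log2 difference between miR-891b and NC1 in HCT116 (x axis) and in A549 (y axis) for the 5 factors measured on all 4 arrays, with spot errors as bars, and for 35 genes of the gut, liver, lung and relatives lists in grey; dashed lines mark 2-fold. The 5 factors lie between -0.19 and 0.07 in HCT116 and between -0.40 and 0.52 in A549.

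The gut genes did not follow a single direction between the lines. Of 30 genes known in intestinal epithelium or as targets of CDX2 or HNF4A, 9 were measured in both lines on the NC1 arrays, 6 of them past 2-fold lower in A549 and 0 higher, with a median of -1.33, where 27.3% of all genes were past 2-fold either way and their median was -0.10. The tight-junction gene CLDN7 and the adhesion gene EPCAM were lower, with log2 differences of -6.75 and -4.92. A further 8 of the 30 were well above background on both A549 arrays and on neither HCT116 array, and 0 the other way round, against 5.09% and 1.5% of all gene names. Among those, the adhesion gene CEACAM6 was at least 1241-fold higher in A549 on the NC1 arrays, the trefoil peptide gene TFF3 at least 205-fold and the actin-bundling gene VIL1 at least 67.5-fold. CDH17, known as a direct target of CDX2, was at least 13.4-fold higher in A549, where CDX2 was low. The CDH17 spot on HCT116 NC1 lay in a patch of stray signal, and its signal of 1.52 was not well above background. On HCT116 miR-891b, where the spot lay outside such patches, it was 1.45. The part of the patch was not tested.

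The liver genes were read mostly in A549. Of 16 genes known in hepatocytes, many as targets of HNF4A or FOXA factors, 10 were well above background on both A549 arrays and on neither HCT116 array, against 5.09% of all gene names. The number well above background was 4 and 3 in HCT116 and 14 and 14 in A549. The plasma protein gene APOH was at least 404-fold higher in A549 on the NC1 arrays, and the fibrinogen chain genes FGG, FGB and FGA at least 250.2-fold, 184-fold and 52.7-fold. These readings stood beside a bright FOXA2 and an HNF4A probe at or near the background in A549.

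Liver genes also differed with miR-891b in A549. Of 14 measured there, 6 were past 2-fold higher and 2 lower, with a median of 0.55. Over all genes 9.58% were past 2-fold in A549, 854 higher and 1189 lower, with a median of -0.06. TTR, the thyroid hormone carrier transthyretin, was higher by 2.33 (signal 87.2 on NC1 and 436 on miR-891b), the albumin gene ALB by 2.17 (13.7 and 61.3) and AFP, the fetal serum protein, by 1.53 (16.0 and 45.8). In HCT116, 3 liver genes were measured on both arrays and 0 were past 2-fold. The 6 higher genes were read in A549 only; of the liver genes that cleared the background on each of the 4 arrays, 0 were higher and 2 lower, and with normexp and quantile normalization 4 were higher and 0 lower. The gut list in A549 had 4 higher and 2 lower of 17 (median 0.19), beside the same 9.58% over all genes, among them ASCL2, a stem-cell factor (1.87), CDH17 (1.38) and the carbonic anhydrase gene CA2 (-1.60).

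The lung genes ran in both directions. Of 25, 14 were measured in both lines on the NC1 arrays, with 1 past 2-fold higher in A549, 4 lower and a median of -0.31, where 27.3% of all genes were past 2-fold. ABCA3, the lipid transporter of lamellar bodies, was higher in A549 by 2.09 on the NC1 arrays and by 3.18 on the miR-891b arrays, and the protease gene NAPSA was lower, with log2 differences of -1.11 and -1.91. LAMP3, a lysosomal membrane gene of alveolar type II cells, was lower in A549 (log2 difference -3.45 on the NC1 arrays), and the mucin gene MUC5B was at least 65.0-fold higher there. Of the surfactant genes, SFTPA1 and SFTPB were at background level throughout. SFTPA2 was read on all 4 arrays, at 401 and 293 in HCT116 and 313 and 255 in A549, though it is nearly identical to SFTPA1 and what its probe reads of each was not tested. SFTPC was read on all 4 arrays at signals from 9.0 to 15.4, and SFTPD in A549 only, at 8.14 and 14.7. Within A549, ABCA3 was higher with miR-891b (1.20) and NAPSA lower (-1.11).

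Relatives of the 8 factors differed between the lines in both directions. Of 25 relatives, partners and other endoderm factors, 13 were measured in both lines on the NC1 arrays, 4 past 2-fold higher in A549 and 5 lower, with a median of -0.60, where 27.3% of 19218 genes were past 2-fold, 2127 higher and 3113 lower. In the SOX family, SOX2 was higher in A549 by 6.31, SOX17 at least 35-fold, and SOX8 was lower (-3.36). In the forkhead family, FOXQ1 was higher in A549 by 3.42 and FOXF1, a factor of the mesenchyme around the gut and lung, was at least 11.9-fold higher in HCT116. The blood and endothelial factor GATA2 was lower in A549 (-2.28). With miR-891b, the epithelial factor ELF3 was lower in HCT116 (-1.0; under quantile normalization and median scaling 0 relatives passed there) and SOX4 higher in A549 (1.29). Among relatives above background on 1 of the HCT116 arrays, the pancreatic factor PDX1 was at least 10.2-fold higher with miR-891b (signals 1.28 and 49.5, the latter in a patch of stray signal) and GATA3 at least 2.02-fold lower (12.6 and 4.81). PDX1 and GATA3 were named after their values were seen.

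Genes beside the factors in the genome were read on the same arrays, with distances taken between probes on hg19. LINC00261, a noncoding gene 20783 bases from the FOXA2 probe, gave signals of 1.07 and 1.42 in HCT116, not well above background, and of 54.8 and 198 in A549. It was thus read in the line where FOXA2 was bright, at least 8.56-fold higher on the NC1 arrays and 23.4-fold on the miR-891b arrays. It was higher with miR-891b in A549 by 1.86, where FOXA2 differed by -0.02. SOX9-AS1, 54646 bases from the SOX9 probe, gave 80.9 and 74.7 in HCT116 and 16.0 and 6.48 in A549, with log2 differences between the lines of -2.79 and -3.91. Like SOX9 it was lowest on A549 miR-891b, where it differed from A549 NC1 by -1.29 and SOX9 by -0.40.

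Other neighbours did not follow their factor, or lay at or near the background. HNF4A-AS1 was well above background on all 4 arrays and differed between the lines by 0.17 and 0.29, while the HNF4A probe was above background on A549 NC1 only. GATA6-AS1 was well above background on A549 miR-891b only, at 8.47, while GATA6 was read throughout. SFTA3, 39535 bases from the NKX2-1 probe, was well above background on A549 NC1 only, at 7.82, where NKX2-1 was not. Its signal on HCT116 miR-891b was 8.10 without that mark, so no direction between the lines is read for SFTA3. The potassium channel genes KCNJ2 and KCNJ16, within 2 Mb of SOX9, were read in A549 only, at least 14.9-fold and 60.3-fold higher on the NC1 arrays, against the direction of SOX9. TTC6, named here after its values were seen, was the remaining neighbour of 20 read in A549 only, and lies 124328 bases from the FOXA1 probe.

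**Figure D5:**
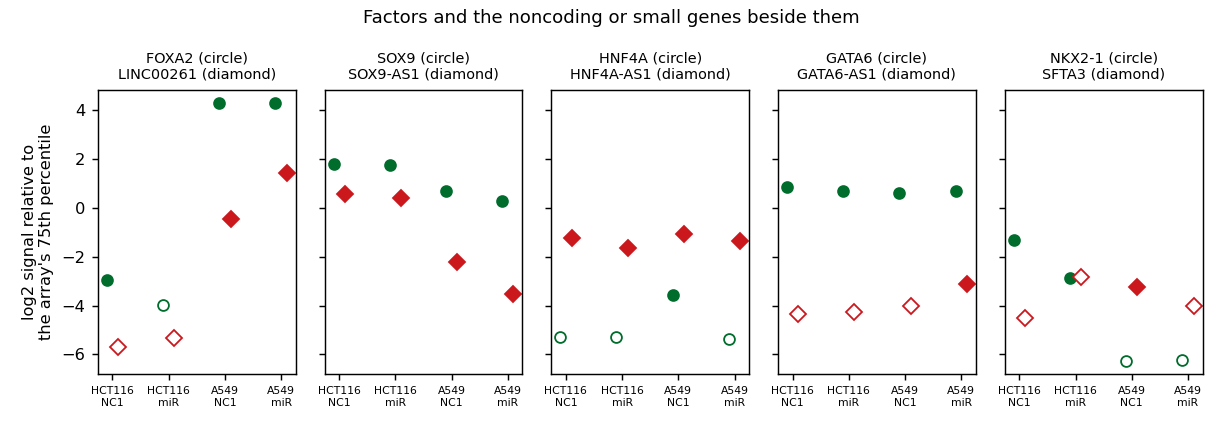
Log2 signal relative to the 75th percentile on the 4 arrays for 5 factors (circles) and for a noncoding or small gene beside each (diamonds); filled symbols are well above background and open ones are not. LINC00261 is filled in A549 only, as FOXA2 is bright there, and SOX9-AS1 is lower in A549, as SOX9 is. In the other 3 pairs HNF4A, GATA6-AS1 and SFTA3 lie at or near the background, so no shared direction is read. Heights of different genes are not comparable.

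FOXA1 and NKX2-1 lie on the same chromosome, 1.07 Mb apart between probes, and ran in opposite directions between the lines. The genes nearest to each factor in profile were taken over the 4 centred log2 values among 12794 genes. For CDX2 these were BIK and KRT32, at Euclidean distances of 0.259 and 0.327, and 8 genes lay within 0.5. For FOXA1 they were TNS3 and GABRE, at 0.354 and 0.370, again with 8 genes within 0.5. For SOX9 the nearest were SNORD49A and TFDP1 (0.0619 and 0.0640), for CDX1 MAP3K11 and TMEM87A (0.0124 and 0.0339) and for GATA6 HEXIM1 and CYTH1 (0.0387 and 0.0431). Between 1301 and 3307 genes lay within 0.5 of these 3 factors, so their profiles were common on 4 arrays. CDX2 and FOXA1 had few near genes, but candidates had to be well above background on all 4 arrays. Genes read in a single line were thus left out, and how rare the profiles of CDX2 and FOXA1 are was not tested. All 4 points of each profile come from the same arrays and scaling.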

How the data were processed

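Total RNA of the 4 groups of transfected cells was measured on 4 one-colour arrays, grouped by their titles. Per the file headers, Feature Extraction 11.5.1.1 produced the processed signal of each spot, background-subtracted and on hg19 probe coordinates. The deposited scanner files hold intensity values with no scaling between arrays. The authors' deposited table holds log2 values that lay within a median of 0.00691 or less of the log2 processed signal minus the 75th percentile, and served as an alternative.

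Outlier spots were left out, log2 signals averaged per probe and the 75th percentile of the gene probes subtracted. A bound ("at least") sets the bright array against the higher of the dim probe's own level and the lowest level marked well above background on that array. A gene was read by its brightest probe. Members and lists were chosen with earlier results of these data known. From each list, up to 6 genes past 2-fold between the lines in both transfections, and up to 3 past 2-fold with miR-891b in a line, were named, and the 2 nearest profiles of each factor measured on all arrays. An item that this rule selects is not reported here. Surfactant genes and genes beside a factor were also given where they were not. The fit used limma 3.58.1 in R 4.3.3 on probes well above background on at least 2 arrays, tested on simulated data, and pandas 2.3.3 and numpy 2.4.6 under Python 3.11.15 gave the other values. Patches of stray signal were windows of 10 rows and columns around a spot where 10% or more of the spots dim on the other arrays were bright. The alternatives were other normalizations, filters and fold thresholds, and FOXA1 without its spots in stray patches, added after the data were seen. The small number of arrays limits the precision.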

Additional observations from a re-analysis of the deposited data

Results flagged for a closer look

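The change with miR-891b had opposite signs in the lines for 4 factors measured on all 4 arrays, and no test of the difference was possible with 1 array per group. The change in A549 minus that in HCT116 was 0.29 on the log2 scale for CDX1, -0.43 for CDX2, 0.53 for FOXA1 and 0.28 for GATA6. The change in HCT116 was smaller than its spot error for CDX1, CDX2 and FOXA1, and the change in A549 for CDX2 and GATA6. None of the 4 factors therefore had changes beyond the spot error in both lines. The change of FOXA1 in HCT116 ranged from -0.08 to 0.12 over the settings, so its sign was not settled.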

How the results depend on the processing

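The line differences of CDX2, FOXA1, FOXA2 and SOX9 kept their sign under all 7 ways of scaling and filtering that gave a value. So did those of CDX1 (brightest probe) and GATA6, which did not separate the lines, so a kept sign says little. The sizes moved more. On the NC1 arrays they ran from -5.23 to -2.54 for CDX2, 2.41 to 4.03 for FOXA1, 4.34 to 7.35 for FOXA2 and -1.11 to -0.74 for SOX9. The number of factors past 2-fold between the lines on the miR-891b arrays was 3, and 5 with no filter on dim probes. With miR-891b in HCT116 it was 1 (NKX2-1), against 0 under normexp with quantile normalization, 0 at 3-fold, and 2 with no filter. It was also 0 where a gene had to clear the background on all 4 arrays, but NKX2-1, at the background in A549, was then not counted. With miR-891b in A549 the number of factors was 0, and 1 with no filter. The additive fit called 5 member probes between the lines, and 3 when all 4 arrays had to be well above background, since FOXA2 and NKX2-1 were then not tested. For miR-891b it called 0, and 1 with no filter, a CDX1 probe above background on a single array (A_23_P58788, -1.31, limma adjusted p = 0.0470). Over all probes the fit called 9873 between the lines, against 6244 under normexp and 15450 with no filter, and for miR-891b 0 against 1761 with no filter. Measured list genes past 2-fold between the lines on the NC1 arrays numbered 6 in the gut list, 5 in the lung list, 1 in the liver list and 9 among the relatives, against 3, 3, 0 and 5 under normexp and 15, 9, 11 and 15 with no filter. The share of higher genes among those past 2-fold was 57.9% with miR-891b in HCT116, 69.2% with normexp, 64.3% with median scaling, 50% with quantile normalization and 49.3% without probes in stray patches, and on the miR-891b arrays between the lines it moved from 35.6% to 46.4% with normexp, where the median of all genes moved from -0.20 to -0.03. With normexp an offset of 50 was added to every signal, which narrows the log2 differences of dim probes. Its part in these moves was not tested, nor was any other cause. No paired analysis was possible because each group had 1 array. FOXA2 and NKX2-1 in 1 line, HNF4A and 2 CDX1 probes lay at the background, where only bounds can be read.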
